A study of Sus scrofa with 2 samples.

Results

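Motile cilia are the beating cell projections that ependymal cells, which line the brain ventricles, use to move cerebrospinal fluid. A motile cilium holds an axoneme, a ring of doublet microtubules around a central pair; dynein motors on the doublets bend it, and radial spokes and central pair proteins regulate the motors. The transcription factor FOXJ1 and factors of the RFX family switch on genes of this structure in ciliated cells, and dynein arms are put together in the cytoplasm by dedicated assembly factors before they enter the cilium. The ventricular surface of the hippocampus carries ependyma, so a dissected hippocampus can hold some of these cells beside neurons and glia.

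The genes described here are those of an expression table whose symbol begins with DNAH, DNAI, DNAAF, RSPH, TEKT, CFAP or SPAG, or is FOXJ1, RFX2, RFX3, MCIDAS, HYDIN, CCDC39, CCDC40, PIFO or TPPP3. The rule found 72 of 25322 gene IDs, among 11804 IDs with a symbol. Of the 9 genes given by their full symbol, 4 had an ID (FOXJ1, RFX3, CCDC39 and CCDC40), and RFX2, MCIDAS, HYDIN, PIFO and TPPP3 matched none and were not analysed here. In all, 29 symbols of the name table that fit the rule matched no ID and were not analysed here, among them RFX2, MCIDAS and TPPP3, the dyneins DNAH5, DNAH7 and DNAI1, and the spoke head gene RSPH1.

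RNA was sequenced from hippocampus samples of Rongchang breed piglets (Sus scrofa), whose genotype label reads "wide type", in 1 control sample and 1 sample from the iron dextran treatment, called treated below. Iron dextran is a complex of iron with a sugar polymer, used in piglets against iron deficiency. The sources used here do not give dose, route, age, sex or how many animals were used, and each sample's label lists 2 names without saying whether these were animals or libraries. With 1 sample per group there was no spread between replicates, no test was made and no difference below has a replicate check. In bulk tissue, fewer cells of a type and less RNA per cell cannot be told apart.

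Values are FPKM, in which fragments are divided by transcript length and by library total, so levels can be compared between genes per length. They summed to 924070 in control and 850165 in the treated sample, with 16727 and 16865 IDs above 0, and the number of fragments sequenced is unknown. Differences are of log2(FPKM + 1), treated minus control; for low genes, the pseudocount of 1 makes the change look smaller. Where a pair of values follows a gene, the control sample comes first. A gene counted as measured from a mean FPKM of 1, and was called higher or lower if it differed by at least 1.5-fold on this scale. Of 11 hippocampal marker genes, 8 had an ID, and all 8 were above 0 in both samples, with summed levels of 48.8 and 57.5 FPKM. Of the 6 measured, 4 lay above 0 (49.0% of all measured genes did) and 2 below, with a median difference of 0.28 (−0.0046 over all genes). None of the 6 was past 1.5-fold, where 2.47% of all genes were higher and 1.47% lower. The 3 with the largest absolute difference were CALB1 (0.802 and 1.56 FPKM), C1QL3 (11.5 and 16.5) and POU3F1 (12.2 and 16.2), all above control. PROX1 (0.761 and 0.858 FPKM) and ZBTB20 (0.150 and 0.0820) were low.

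In the iron dextran sample, most measured genes of the motile cilium sat slightly below their control level. Of 6 measured assembly factors of dynein, a group made after the values were seen, 5 sat slightly above control. Over all measured genes, 49.0% lay above 0. ZMYND10, an assembly factor outside the rule, sat below control. Of the 72 genes, 37 were measured, 32 were above 0 but below a mean FPKM of 1 and 3 stood at 0 in both. Of the 37, 1 was at least 1.5-fold lower (1.47% of 12557 measured genes were) and 0 of the 37 were at least 1.5-fold higher (2.47% of all genes were). The difference lay below 0 for 28 of the 37 (75.7%), where 51.0% of all measured genes lay below 0, and above 0 for the other 9, where 49.0% of all genes did. The median log2 difference was −0.15, with quartiles at −0.23 and −0.04, against a median of −0.0046 and quartiles of −0.12 and 0.14 over all genes. When both columns were scaled to the same total, which moved the median of all genes by over 0.1 to 0.10, 21 of the 37 lay below 0 (28.0% of all genes did) and their median was −0.06.

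**Figure D1:**
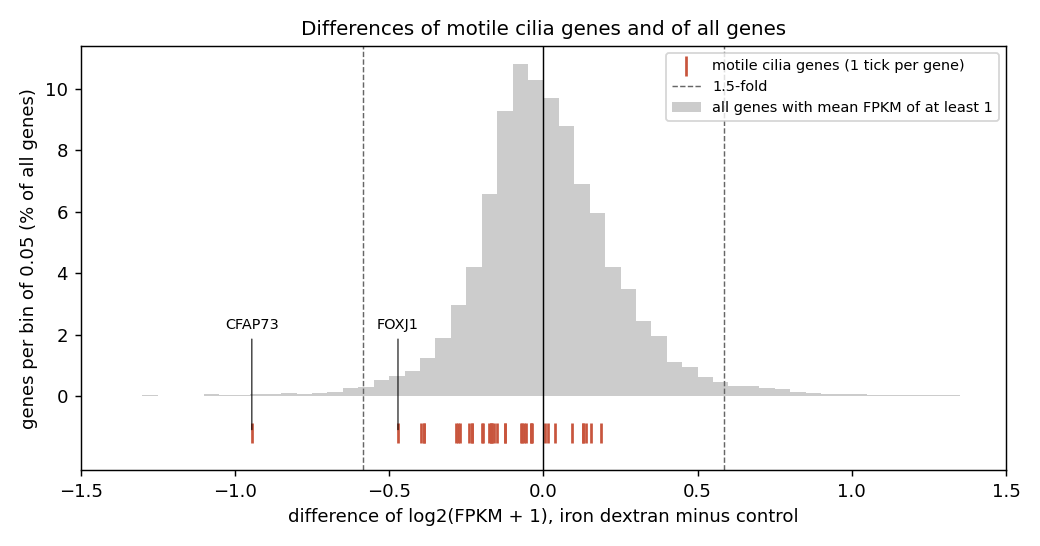
Grey bars give the percentage of all 12557 measured genes per bin of the difference of log2(FPKM + 1), treated (iron dextran) minus control, and each red tick is 1 of the 37 measured motile cilia genes. Dashed lines mark 1.5-fold; most ticks lie just left of 0, and only CFAP73 lies beyond the lower line.

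FOXJ1 (ENSSSCG00000017187), the transcription factor that drives the motile cilia programme, had 8.89 FPKM in the control sample and 6.14 in the treated one. Control was 1.45 times iron dextran, a log2 difference of −0.47, and 2.58% of all measured genes had a lower difference. On this scale only CFAP73 of the measured motile cilia genes had a lower difference; with a pseudocount of 0.1, under which FOXJ1 was at −0.53, CFAP57 (−0.62), TEKT2 (−0.62) and DNAAF4 (−0.70) lay below it too. RFX3 (ENSSSCG00000005225), which cooperates with FOXJ1 and also acts in cells with a primary cilium, went the other way from a low level, with 0.325 FPKM in the control sample and 0.852 in the treated one, a ratio of 2.62. At such levels a few fragments can set the ratio: among genes above 0 in both samples with a mean FPKM under 1, 28.0% were at least 1.5-fold higher by plain ratio and 20.7% were at least 1.5-fold lower.

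Of 9 subunits of the dynein motors, the 4 measured all had lower values in iron dextran, by small amounts. Over all measured genes, 51.0% lay below 0. DNAH9, a heavy chain of the outer dynein arm, was the heavy chain with the highest level, at 6.12 FPKM in the control sample and 5.02 in the treated one. DNAH2, a heavy chain of the inner arm, had 1.82 and 1.51 FPKM. Outer arms set much of the beat frequency, and inner arms shape the bend. DNAI2, an intermediate chain of the outer arm, had 2.13 and 1.81 FPKM. DNAI3, an intermediate chain of the inner arm, had 1.23 and 1.17 FPKM. These 4 differences ran from −0.24 (DNAH9) to −0.04 (DNAI3); with the same column total DNAI3 turned to 0.02. The heavy chains DNAH1, DNAH10, DNAH11 and DNAH12 were far lower than DNAH9 in both samples, between 0.0691 FPKM (DNAH11 in iron dextran) and 0.180 FPKM (DNAH10 in control), and their values lay on both sides of control. DNAI4, an intermediate chain of the inner arm, had 0.276 and 0.501 FPKM.

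Assembly factors of dynein had the opposite balance, with 5 of 6 measured members above 0 (49.0% of all measured genes were) and a median log2 difference of 0.11. All genes with a mean FPKM from 1 to 2 and from 2 to 5 had medians of 0.07 and 0.06. At these levels 41.0% and 39.6% of all genes lay below 0. The grouping by role was made after the values were seen. DNAAF10, which links dynein assembly to a chaperone complex, had the highest level of the group, at 8.17 FPKM in the control sample and 9.43 in the treated one. DNAAF9 had 2.98 and 3.43 FPKM. DNAAF11, also called LRRC6, is a gene of primary ciliary dyskinesia, the inherited disease of immotile cilia, and had 2.18 and 2.26 FPKM. CFAP300, which is needed for dynein arms to be in place, had 1.68 and 1.93 FPKM, and DNAAF8 had 1.40 and 1.56. These 5 genes differed from control by ratios of 1.04 to 1.154. The exception was DNAAF4, also known for a role in neuronal migration, with 1.43 FPKM in the control sample and 0.843 in the treated one, a log2 difference of −0.40. After centring by expression bin DNAAF11 turned to −0.0054, which left 4 of 6 above 0, and the median of the 6 was 0.04. Of the 4 assembly factors below a mean FPKM of 1, DNAAF5 (0.513 and 0.503 FPKM) and DNAAF6 (0.559 and 0.541) were nearly level, while DNAAF1 (0.273 and 0.364) and SPAG1 (0.135 and 0.260) were higher in iron dextran. Whether assembly factors differ from the other motile cilia genes cannot be tested with 1 sample per group.

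**Figure D2:**
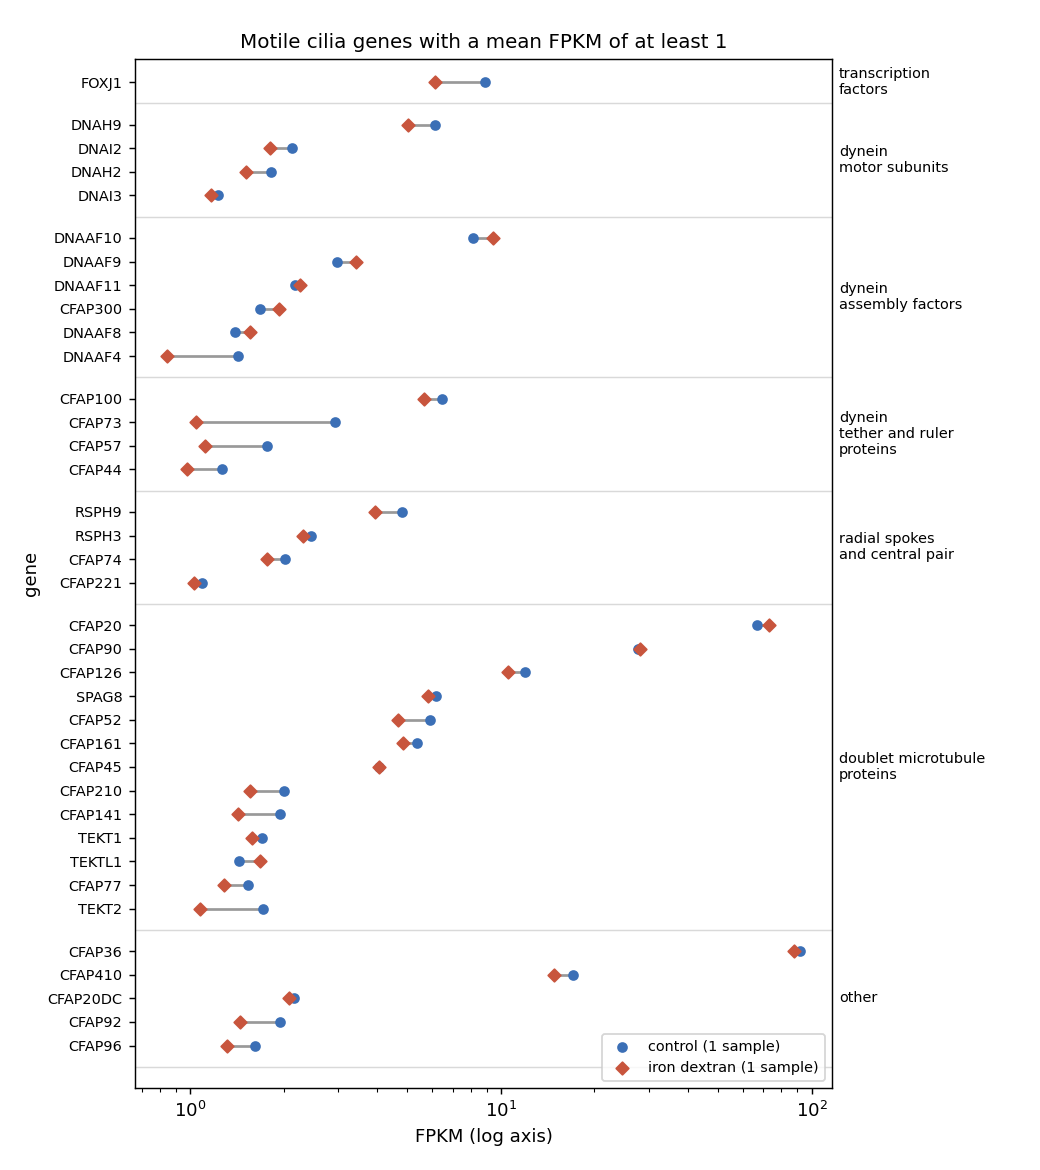
FPKM on a log axis of the 37 measured motile cilia genes, grouped by role; blue circles are the control sample and red diamonds the iron dextran sample. Red lies left of blue in every row of the motor, tether and ruler, spoke and central pair groups and right of it for 5 of 6 assembly factors.

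The genes that anchor the inner dynein arms and set their spacing held the gene with the lowest difference. CFAP73 (ENSSSCG00000009875), part of a complex that modifies the inner arms, had 2.94 FPKM in the control sample and 1.04 in the treated one. Control was 2.81 times iron dextran, a log2 difference of −0.95, and 0.494% of all measured genes had a lower difference. CFAP73 was itself a low gene, with a mean of 1.99 FPKM, and 87.8% of measured genes had a higher mean. On this scale it did not pass a limit of 2-fold. CFAP100 (ENSSSCG00000001826), its partner in that complex, had 6.45 and 5.64 FPKM, a control level higher by a factor of 1.14. The pair thus stood 2.81-fold and 1.14-fold from level in the same direction. CFAP57, an adaptor of an inner arm dynein, had 1.77 and 1.12 FPKM, and CFAP44, of the tether of an inner arm, had 1.27 and 0.978. CFAP43, the partner of CFAP44, was low, at 0.170 and 0.102 FPKM. CCDC39 and CCDC40, which together form the ruler that sets the repeat along the axoneme, were both low and higher in iron dextran, at 0.342 and 0.485 FPKM for CCDC39 and 0.424 and 0.629 for CCDC40.

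Radial spoke and central pair genes were mostly expressed at low levels, with 4 of 13 measured. RSPH9, of the spoke head, had 4.81 FPKM in the control sample and 3.95 in the treated one. RSPH3, of the spoke stalk, had 2.45 and 2.31 FPKM. The central pair genes CFAP74 and CFAP221 had 2.02 and 1.78 FPKM and 1.09 and 1.03 FPKM. The differences of these 4 ran from −0.23 (RSPH9) to −0.04 (CFAP221), where 51.0% of all measured genes lay below 0. RSPH3 and CFAP221 turned above 0, to 0.03 and 0.02, with the same column total. Below a mean FPKM of 1, the central pair genes SPAG6 (0.856 and 0.552 FPKM), SPAG16 (0.720 and 0.479), SPAG17 (0.651 and 0.565), CFAP46 (1.07 and 0.782) and CFAP65 (0.206 and 0.0964) had lower values in iron dextran. Among spoke genes at that level, RSPH4A (0.614 and 0.488 FPKM) and RSPH14 (0.462 and 0.432) were lower, CFAP206 (0.774 and 0.934) was higher and CFAP91 (0.380 and 0.397) was nearly level.

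Proteins of the doublet microtubules, most of which lie inside the tubule wall, made up the largest group, with 13 of 16 measured. Of these 13, 9 lay below 0 (51.0% of all measured genes did). CFAP20, which seals the junction of the doublet and is made in many cell types, had 66.6 FPKM in the control sample and 72.8 in the treated one. CFAP90 had 27.7 and 28.0 FPKM, and CFAP126, known as Flattop, had 11.98 and 10.5. CFAP52 had 5.90 and 4.67 FPKM, CFAP161 had 5.36 and 4.84, and SPAG8 had 6.18 and 5.84. These inner proteins bind the tubulin lattice from within the tubule. CFAP45, another of them, was level, at 4.05 and 4.07 FPKM. The tektins are filament proteins of the doublet wall, and TEKT2 had 1.72 FPKM in the control sample and 1.08 in the treated one, a control level higher by a factor of 1.59. TEKT1 had 1.70 and 1.59 FPKM, TEKT3 had 0.827 and 0.815, and TEKTL1 had 1.43 and 1.68. CFAP210, CFAP141 and CFAP77, inner proteins of the doublet again, stood lower in the treated sample. CFAP210 had 2.002 and 1.56 FPKM, CFAP141 had 1.95 and 1.43, and CFAP77 had 1.53 and 1.28. The tektins therefore did not share 1 direction, with TEKT1 and TEKT2 below 0 and TEKTL1 above it; TEKT1 and SPAG8 turned above 0, to 0.01 and 0.03, with the same column total. CFAP90 and CFAP45 turned below 0 when columns were centred on their median (−0.0054 and −0.02), and CFAP45 also with a trimmed mean of M values and after centring by expression bin. TEKT5 and CFAP107 were listed at 0 in both samples.

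The remaining genes carry the name prefix without a placed role in the axoneme here. CFAP36 had the highest level of all 72, at 92.0 FPKM in the control sample and 87.6 in the treated one, a difference that turned above 0 when totals were equalised and when differences were centred by expression bin. CFAP410, a gene of ciliopathies of retina and skeleton, had 17.1 and 14.8 FPKM. CFAP92 had 1.95 and 1.44 FPKM, CFAP96 had 1.62 and 1.31, and CFAP20DC had 2.16 and 2.08, the last turning to 0.05 with the same column total. SPAG5, a protein of the mitotic spindle and not of the axoneme, had 0.939 and 0.998 FPKM. SPAG11 (0.404 FPKM in iron dextran) and CFAP97 (0.111 in iron dextran) were listed at 0 in control, SPAG4 (0.229 in control) was listed at 0 in iron dextran, and CFAP97D1 was listed at 0 in both. An exact 0 in such a table can be a failed estimate. CFAP58 (0.0908 and 0.0342 FPKM), CFAP70 (0.597 and 0.602), CFAP119 (0.599 and 0.748), CFAP157 (0.731 and 0.531) and CFAP263 (0.441 and 0.414) complete the group.

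**Figure D3:**
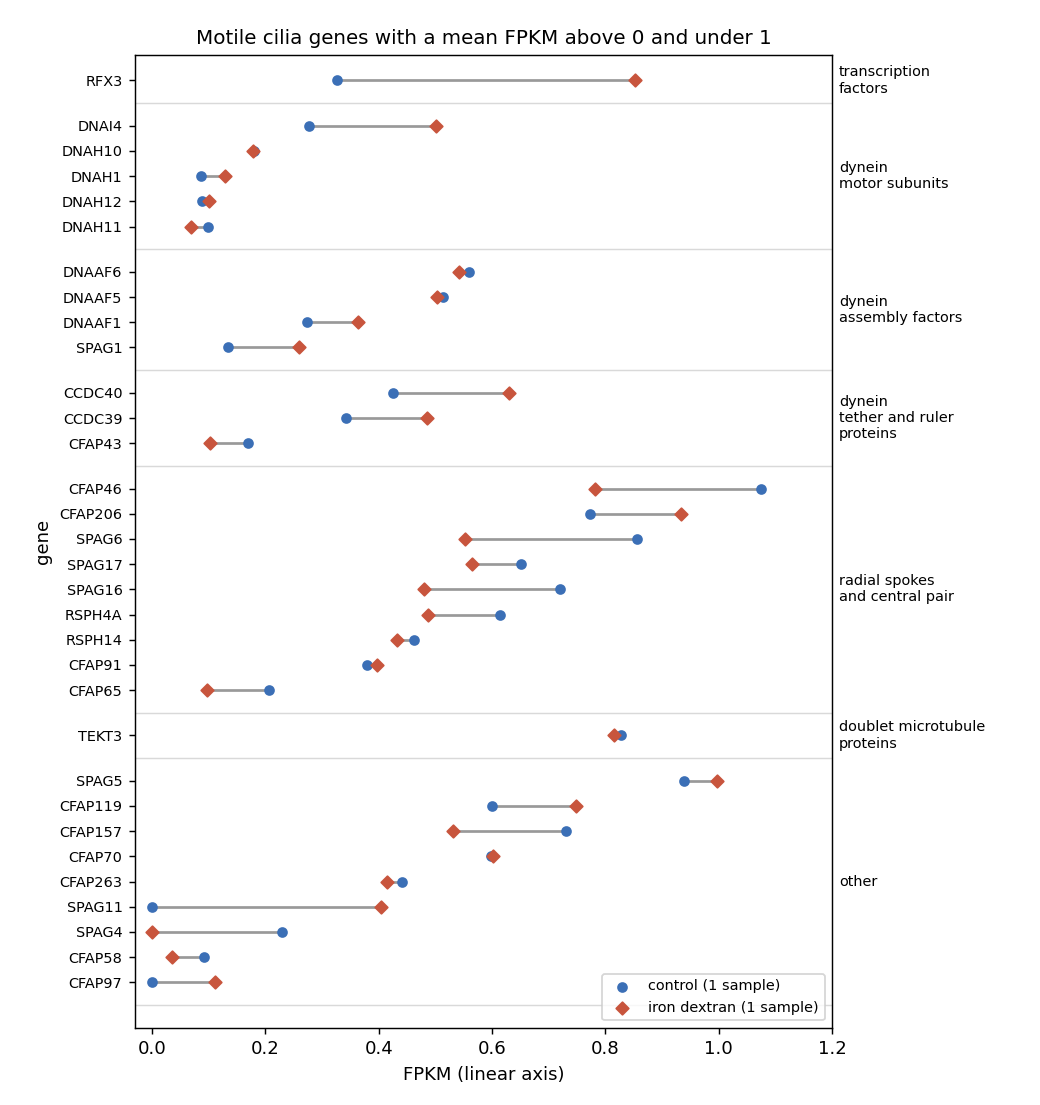
FPKM on a linear axis of the 32 motile cilia genes with a mean FPKM above 0 and under 1, by role; blue circles are the control sample and red diamonds the iron dextran sample. Central pair genes such as SPAG6 and SPAG16 have red to the left of blue, while RFX3, DNAI4, CCDC39 and CCDC40 have it to the right.

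Of the low genes, 29 were above 0 in both samples, and by plain ratio 4 of these (13.8%) were at least 1.5-fold higher in the treated sample and 5 (17.2%) were at least 1.5-fold lower. Both shares were below those of all genes at this level, 28.0% and 20.7%, and the median ratio was 0.986 against 1.02 for all such genes. The 4 were RFX3, SPAG1, DNAI4 and DNAH1, and the 5 were CFAP58, CFAP65, CFAP43, SPAG6 and SPAG16, the last at a control level higher by a factor of 1.502. All 9 were singled out after their values were seen.

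The position of the group relative to other genes varied with expression level. Of 19 motile cilia genes with a mean FPKM from 1 to 2, 16 lay below 0 (84.2%), where 41.0% of all genes at that level did, with medians of −0.17 and 0.07. Of 9 genes from 5 to 20 FPKM, 8 lay below 0 (88.9%, against 46.1% of all genes), with medians of −0.17 and 0.02. From 2 to 5 FPKM the group was split, with 3 of 6 below 0 (39.6% of all genes). CFAP20, CFAP36 and CFAP90, the genes above 20 FPKM, had a median of 0.02 against −0.06 for all genes at that level. The summed FPKM of the 72 genes was 327 in control and 314 in the treated sample, a ratio of 0.958, where the sum over all genes had a ratio of 0.920. Most of the sum of the 72 came from a few genes with high levels. Without CFAP36, CFAP20, CFAP90 and CFAP410 the sums were 124 and 110.5 FPKM, a ratio of 0.890. The sum over all genes was not cut in the same way, so it is no match for this ratio.

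Other cilia genes were read from lists that do not overlap these members. Of 64 symbols of further motile cilia genes, 38 had an ID and 17 were measured. Of the 17, 11 lay below 0 (51.0% of all measured genes did) and 6 above it. None was past 1.5-fold either way, where 2.47% of all genes were higher and 1.47% lower. The median of the list was −0.09, which turned to 0.02 with the same column total. With that scaling the median of all genes was 0.10, and 8 of the 17 lay below 0, where 28.0% of all genes did. The 3 with the largest absolute difference were all higher in iron dextran, against the list's median: LRRC23, a spoke protein, had 2.56 and 4.15 FPKM, EFHC2 had 0.844 and 1.57, and ROPN1L had 18.5 and 24.2. With the same column total LRRC23 passed 1.5-fold, at a log2 difference of 0.62. The measured genes of the nexin-dynein regulatory complex, which links neighbouring doublets, were lower in iron dextran, apart from GAS8 with the same column total (0.03): CCDC65 had 3.75 and 2.98 FPKM, DRC7 had 1.44 and 1.04, and GAS8 had 9.41 and 8.87. ZMYND10, another dynein assembly factor, had 14.6 and 12.5 FPKM, unlike the 5 assembly factors above control. These 4 were chosen after their values were seen.

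Genes that build cilia of any kind, primary cilia of neurons and astrocytes included, lay on both sides of 0 in the values as deposited, and mostly above it, as all genes did, with the same column total. Over all measured genes as deposited, 49.0% lay above 0, 2.47% were at least 1.5-fold higher and 1.47% at least 1.5-fold lower. Of 23 measured genes of intraflagellar transport, which carries cargo along the cilium, 12 were above 0 and 11 below, with a median of 0.01 and none past 1.5-fold. IFT81 had 4.96 FPKM in the control sample and 6.50 in the treated one, WDR35 had 1.80 and 2.28, and the kinesin KIF17 had 1.46 and 1.86. Of 21 measured genes of the BBSome, a carrier of membrane proteins, and of the transition zone at the base of the cilium, 12 were above 0 and 9 below, with a median of 0.02 and none past 1.5-fold. TMEM67 had 2.18 and 3.04 FPKM, BBS7 had 4.74 and 5.77, and B9D2 had 19.8 and 17.1. When columns were centred on their median, the intraflagellar transport list turned to −0.0061; after centring by expression bin, the other list turned to −0.02. With the same column total, 19 of 23 intraflagellar transport genes lay above 0, with a median of 0.11. So did 17 of 21 BBSome and transition zone genes, with a median of 0.12. Of all 12557 measured genes, 9045 did, with a median of 0.10. The difference between these lists and the motile cilia genes was not tested.

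**Figure D4:**
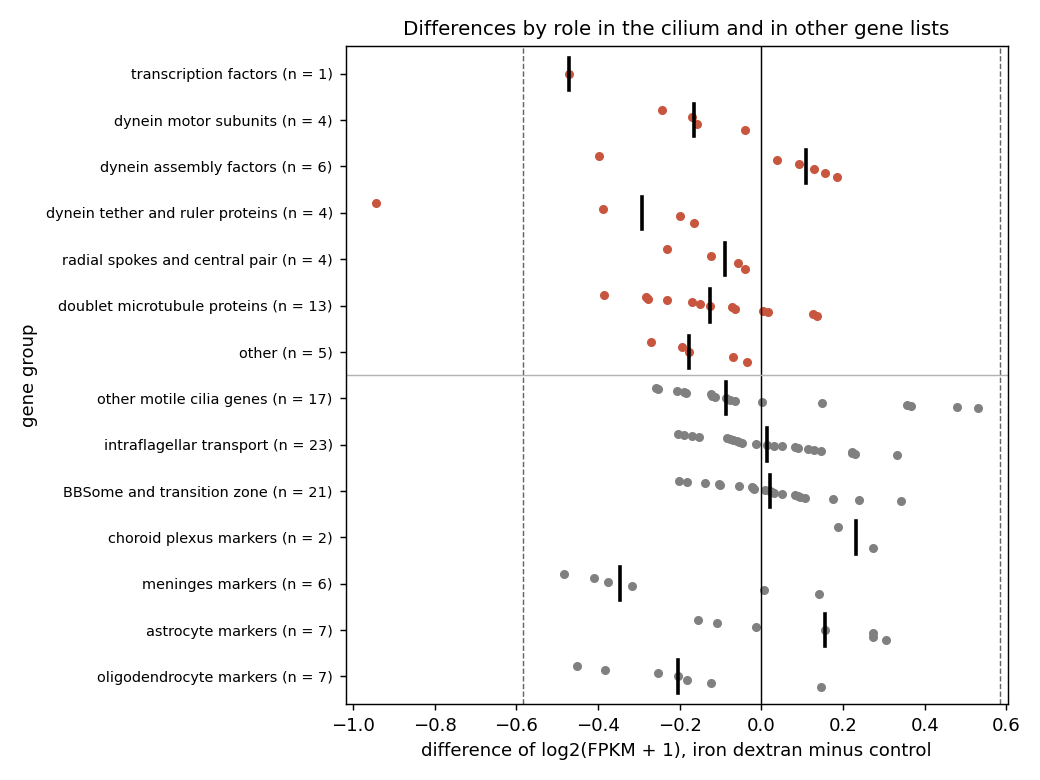
Differences of log2(FPKM + 1), treated (iron dextran) minus control, of measured genes by role (red) and in other lists (grey); each point is 1 gene, black bars are medians and dashed lines mark 1.5-fold. Motor, tether, spoke and doublet genes have medians below 0 and assembly factors a median of 0.11, while the transport and BBSome lists have medians of 0.01 and 0.02.

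Markers of ependymal cells other than cilia genes gave no common direction. Of 10 such markers 5 had an ID and 2 were measured: VIM, a filament protein that astrocytes also make, had 337 FPKM in the control sample and 313 in the treated one, and PROM1 had 2.25 and 2.78. TMEM212 (0.183 and 0.528 FPKM) and GLIS3 (0.211 and 0.267) were low, and MIA had 0.676 FPKM in control and was listed at 0 in iron dextran. The summed level of the 5 was 341 and 316 FPKM. Apart from the cilia genes, the label ependymal thus had 2 measured markers behind it.

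Among marker lists of other cell types, erythroid markers had 3 of 3 measured members at least 1.5-fold higher in the treated sample and microglial markers had 1 of 5. Over all measured genes, 2.47% were at least 1.5-fold higher and 1.47% at least 1.5-fold lower. The lists of choroid plexus, meninges, oligodendrocytes, astrocytes, neurons and endothelium, with 2 to 7 measured members each, had none past 1.5-fold either way. Erythroid markers summed to 189 and 519 FPKM, with HBB at 183 and 506, HBM at 2.89 and 6.80 and ALAS2 at 3.29 and 5.78. Microglial markers, 5 of 8 with an ID, summed to 70.6 and 95.5 FPKM, with P2RY12, the 1 past 1.5-fold, at 9.80 and 20.05, CX3CR1 at 11.3 and 15.7 and CTSS at 5.68 and 7.85. Choroid plexus, whose epithelium also carries cilia, had 6 of 9 markers with an ID and summed levels of 21.6 and 26.2 FPKM, nearly all of it from TTR (19.9 and 24.2). KCNJ13 had 1.26 and 1.57 FPKM, and the other 4 were low and went both ways: CLIC6 (0.148 and 0.272), OTX2 (0.206 and 0.0656), PRLR (listed at 0 in control, 0.0296 in iron dextran) and SLC4A5 (0.0770 in control, listed at 0 in iron dextran). Meninges, 6 of 8, summed to 52.0 and 46.4 FPKM, with SLC13A4 at 2.05 and 1.18, SLC6A13 at 5.40 and 3.82 and COL1A2 at 6.87 and 5.07. Of these 6, 4 lay below 0 and 2 above, DCN (24.17 and 24.27) and LUM (4.55 and 5.12). Oligodendrocyte markers, 7 of 8, summed to 9817 and 8628 FPKM, with GJB1 at 24.9 and 17.9, OPALIN at 257 and 197 and MAG at 619.9 and 519.6. Of these 7, 6 lay below 0 and 1 above, MOG (24.98 and 27.76). Astrocyte markers, 7 of 8, summed to 1764 and 1701 FPKM although their median difference was 0.16, with SLC1A3 at 116 and 143, GJA1 at 178 and 216 and SLC1A2 at 12.8 and 15.7. Of these 7, 4 lay above 0 and 3 below, GFAP (1275 and 1145), ALDH1L1 (11.8 and 10.8) and AGT (151.4 and 149.9). Neuron markers, 6 of 7, summed to 3608 and 3462 FPKM, with SYN1 at 269.7 and 236, SNAP25 at 1032 and 952 and STMN2 at 871 and 835. Of these 6, 4 lay below 0 and 2 above, NEFL (409 and 424) and SYT1 (325.6 and 326.7). Endothelial markers, 3 of 6, summed to 22.2 and 19.99 FPKM, with TEK at 1.81 and 1.203, PECAM1 at 16.9 and 14.9 and FLT1 at 3.48 and 3.85. The sum over all genes had a ratio of treated to control of 0.920. Their part in the values of the motile cilia genes was not tested.

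**Figure D5:**
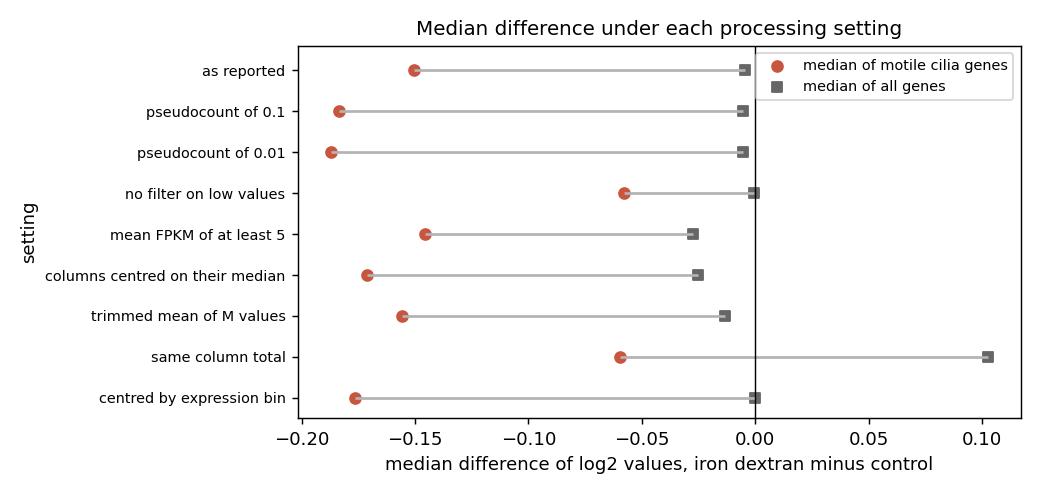
Median difference of log2 values, iron dextran minus control, of the motile cilia genes (red circles) and of all genes (grey squares) under each setting of pseudocount, filter and scaling. The red median stays left of the grey one in all 9 settings shown, between −0.19 and −0.06.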

How the data were processed

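The authors deposited 1 table of FPKM values, keyed by Ensembl pig gene ID, with a column for each sample; columns were matched to samples by the letter in the sample title. The submitters' processing notes name cutadapt 1.2.1, TopHat, Sscrofa10.2 and susScr3. The FPKM program, the annotation and the use of strand have no statement in the sources used here, so reads of overlapping genes may be shared. Symbols came from a table of Ensembl IDs (11804 of 25322 matched). No sequence or coordinate is given.

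Differences of log2(FPKM + 1) were computed with Python 3.11.15, numpy 2.4.6 and pandas 2.3.3 and checked on simulated data. Genes with a mean FPKM under 1 were not counted as measured. With 1 sample per group no test was made. Among 631 genes with a geometric mean FPKM under 0.1, 371 (58.8%) had ratios within 0.05 log2 units of 0.5, 1 or 2 times a common value; read as whole fragments, iron dextran had 1.06 times the depth of control. Absolute depth is unknown, so no interval is given.

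Members and lists were chosen with earlier results of these data known, and the roles were assigned, and the hippocampal markers added, after the values were seen. Named are all measured members, the 9 genes given by full symbol where they had an ID, members listed at 0, and the 3 measured genes per other list with the largest absolute difference (fewer where fewer were measured); other low members and low markers were added later. Alternatives were pseudocounts of 0.1 and 0.01, no filter, a mean FPKM of at least 5, centring on column medians, a trimmed mean of M values (30% of M and 5% of A values trimmed per side), equal totals, a limit of 2-fold, and leaving out SPAG4, SPAG5 and SPAG11; centring in 20 expression bins and IDs with a symbol alone were added after seeing the data. A planned search of promoters for motifs was not run.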

Additional observations from a re-analysis of the deposited data

How the results depend on the processing

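The median difference of the motile cilia genes kept its sign under every setting run, from −0.19 (pseudocount of 0.01) to −0.06 (no filter, and same column total), and lay below the median of all genes each time. The count of 1 member at least 1.5-fold lower (CFAP73) became 4 with a pseudocount of 0.1 or 0.01, which added CFAP57, TEKT2 and DNAAF4. It became 0 from a mean FPKM of 5, where 12 members were left, or at a limit of 2-fold. Among members passing the filter of each setting, none was higher. RFX3, with a mean FPKM under 1, was outside the count at the smaller pseudocounts, where its difference was 1.16 (0.1) and 1.36 (0.01). The 9 members above 0 became 16 with the same column total, 24 of 69 without a filter and 3 of 12 from a mean FPKM of 5. Over all genes, the 310 higher and 185 lower became 558 and 332 with a pseudocount of 0.1, 599 and 357 with 0.01, 434 and 282 without a filter, 113 and 71 from a mean FPKM of 5, 93 and 53 at 2-fold, 105 and 54 among IDs with a symbol (added after seeing the data), and 442 and 130 with the same column total. Leaving out the SPAG genes with roles outside cilia changed no count, since none was measured. No paired analysis was possible because each group was 1 sample. With 1 sample per group and no known depth, differences of the size seen for most members cannot be set against any error.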
